A study of Caenorhabditis elegans with 12 samples.

Results

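The oac genes of the nematode Caenorhabditis elegans are named for O-acyltransferase homology. All genes whose symbol is oac- followed by a number, and for which the array carries a probe, were taken as members, which gave 57 of the 19811 genes with a probe. They were chosen by symbol and by the presence of a probe, and no signal value entered, although the family was taken up with its detection flags and earlier results of these arrays known. The reference gene table names 60 such genes, and oac-25, oac-42 and oac-60 had no probe matched to them. Of the 57 genes, 14 were bright enough to be compared between groups, against 13483 of the 19811 genes with a probe. The 43 other oac genes are described by their detection.

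The proteins of this family carry an acyltransferase-3 domain, a multi-pass membrane domain first known from bacteria, where such enzymes move acyl groups onto sugars of the cell surface. In C. elegans the domain is shared with NRF-6 and NDG-4, which were found through mutants resistant to fluoxetine and take part in the uptake of drugs and yolk, and with RHY-1, which restrains the hypoxia factor HIF-1. Most oac genes bear only a number given by homology, so the genes below are ordered by where and when their signal differed and not by a role.

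Total RNA of adult worms was measured on 12 single-colour arrays, 3 per group. Wild-type N2 (Bristol) worms were grown at 15 °C, or were raised at 15 °C and then kept at 25 °C for 3 h or for 12 h. The fourth group was daf-2(e1370), a temperature-sensitive mutant of the insulin/IGF receptor, raised at 15 °C and kept at 25 °C for 12 h. No daf-2 group at 15 °C is among the samples, so strain and the response of the mutant to warmth cannot be told apart. Every value is from whole worms, in which fewer cells of a type and less RNA per cell cannot be told apart.

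The arrays of each group carry the letters A and B and the number 1, and each of these sets occupied 1 slide. The labels call both A and 1 the first replicate, and do not say whether the replicates were separate cultures, so the p-values measure only the spread between these arrays. The slides of A and B share a scan day, and the slide of set 1 has a different one. Each group lay at the same position on every slide, so position and group cannot be told apart. The strain label was checked with 8 genes known to be raised in daf-2 mutants: the 6 of them that were tested were all higher in daf-2 than in N2 at 12 h, among them sod-3, a superoxide dismutase, by 9.55-fold.

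Detection was read from the extraction software's flag for a spot well above background. Each gene was read by a single probe: the brightest that passed the filter given below, or the brightest of all where none passed. In N2 at 15 °C, 11 of the 57 oac genes (19.3%) passed on all 3 arrays, against 59.0% of all genes with a probe. At 3 h the oac count was again 11 (19.3%, against 60.8% of all genes), at 12 h it was 10 (17.5%, against 63.0%), and in daf-2 it was 10 (17.5%, against 63.3%). The share of the family lay below that of all genes in each of the 4 groups, a difference that was not tested. The oac genes flagged on none of a group's 3 arrays numbered 23 (40.4%) at 15 °C, 23 (40.4%) at 3 h, 21 (36.8%) at 12 h and 16 (28.1%) in daf-2. Of all genes with a probe 15.5%, 13.997%, 14.1% and 12.3% were flagged on none, in the same order, so the lowest share was that of daf-2 for all genes as well.

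**Figure D1:**
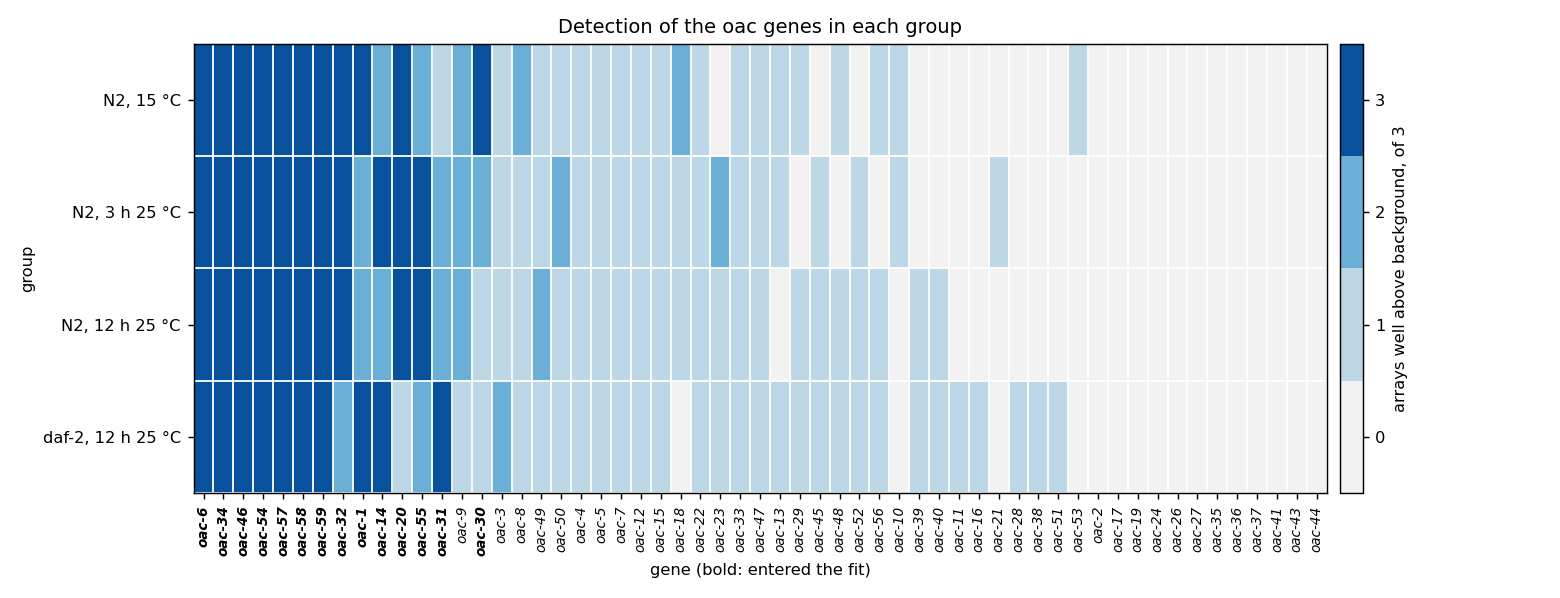
Number of arrays, out of 3 in each group (rows), on which each of the 57 oac genes (columns, ordered by their total over 12 arrays) was well above background. By the probe read for each gene, the 7 genes at the left were detected on all arrays and the 12 at the right on none. The genes in bold entered the fit.

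Detection varied with the set. On the 4 arrays of set A, 10 to 13 oac genes were well above background, on those of set B 12 to 17, and on those of set 1 33 to 39. The lowest log2 signal that counted as well above background lay between -5.30 and -4.85 in sets A and B and between -7.63 and -7.54 in set 1, on the scale relative to the array's 75th percentile used throughout. On set 1 alone 57.9% to 68.4% of the family was detected, against 83.7% to 87.2% of all genes. The lower number of undetected genes in daf-2 (16, against 21 to 23 in N2) goes with set 1, where 39 genes passed in daf-2 and 33 to 35 in N2. On set A the daf-2 array had 13 and on set B 12.

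The 7 oac genes well above background on all 12 arrays were oac-6, oac-34, oac-46, oac-54, oac-57, oac-58 and oac-59. Another 22 genes were detected on set 1 only by the probe read: oac-4, oac-5, oac-7, oac-10, oac-12, oac-13, oac-15, oac-16, oac-21, oac-22, oac-28, oac-29, oac-33, oac-38, oac-39, oac-40, oac-47, oac-48, oac-51, oac-52, oac-53 and oac-56. Of these, oac-48 had another probe flagged on 2 arrays, with its brightest value, -5.21, on the set B array at 3 h. Those detected on no array by the probe read were 12: oac-2, oac-17, oac-19, oac-24, oac-26, oac-27, oac-35, oac-36, oac-37, oac-41, oac-43 and oac-44. Of these, oac-36 had another probe flagged on 2 arrays, and oac-44 had another flagged on 1. The remaining genes were oac-1, oac-3, oac-8, oac-9, oac-11, oac-14, oac-18, oac-20, oac-23, oac-30, oac-31, oac-32, oac-45, oac-49, oac-50 and oac-55, each seen on some arrays of set A or B. The share of all genes in each of these classes was not counted. The reference table lists 3 members as pseudogenes (oac-18, oac-33 and oac-47), and 0 of these were bright enough to be tested.

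All 57 members lie on chromosomes V (22 members), I (15), IV (13), II (6) and X (1). Detected and undetected members were spread unevenly over these chromosomes, which was not tested, and the shares among all genes of each chromosome were not counted. By the probe read for each gene, chromosome I held 8 of the 12 genes seen on no array and 1 tested gene, oac-34, whereas chromosome II held 0 unseen genes and 3 tested ones among 6. Many members sit side by side: 13 pairs with no other protein-coding gene or pseudogene of the reference table between them involve 23 of the 57 genes. Both partners were tested in 3 of these pairs, namely oac-59 with oac-57, oac-57 with oac-58, and oac-31 with oac-32. Probe sequences were not used here, so whether a probe also reads a similar neighbouring copy was not tested.

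A gene entered the comparisons when its probe carried the well-above-background flag on each of the 3 arrays of some group. The 14 oac genes that passed were fitted with limma within all 13483 genes that did, and a gene counted as changed at a Benjamini-Hochberg adjusted p under 0.05 over all of these. A gene that passed only through the group where it is bright had to differ from the other groups in detection, so the counts below describe the 14 genes and are no support for a shift of the family. The N2 comparisons share arrays: 3 h and 12 h were both set against the same 15 °C arrays, and the 12 h arrays also serve as the control of daf-2.

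After 12 h at 25 °C, daf-2 worms differed from N2 worms in 4 of the 14 oac genes: oac-34 and oac-31 were higher, and oac-32 and oac-20 were lower. The same comparison called 21.9% of all genes tested, with 14.4% higher and 7.45% lower, so 4 of 14 is near the background and is no result about the family. The median difference of the 14 oac genes was 0.33 on the log2 scale, and that of all genes -0.14. The array scaling moves this last value, to -0.38 with median centring, and differences in daf-2 are best read against it.

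oac-34, a gene of chromosome I, was brighter in daf-2 than in any N2 group. In N2 it measured -2.20, -2.003 and -2.03 at 15 °C (sets A, B and 1), -2.14, -2.09 and -2.06 at 3 h, and -2.43, -2.71 and -2.18 at 12 h. In daf-2 it measured -0.97, -0.80 and -1.05. All 3 daf-2 arrays lay above all 9 N2 arrays, and within N2 the 12 h value was the lowest of its set in all 3 sets. The group means at 12 h were -0.94 ± 0.13 in daf-2 and -2.44 ± 0.26 in N2 (SD, n = 3). oac-34 was thus 2.83-fold higher in daf-2 (log2 difference 1.501 ± 0.16 SE, limma adjusted p = 0.000198), by 1.46 in set A, 1.91 in set B and 1.13 in set 1. The call was kept in all 19 alternative settings that could test it, with differences between 1.06 and 1.69.

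oac-20, on chromosome V, was near background in daf-2. Its N2 values were -3.54, -2.94 and -1.09 at 15 °C, -2.65, -2.16 and -0.52 at 3 h, and -2.01, -1.78 and -0.10 at 12 h, with set 1 the brightest in each group. The daf-2 arrays gave -5.56, -5.49 and -4.26, and only the last was well above background. No daf-2 array reached the lowest N2 array. The fitted difference at 12 h was -3.81 ± 0.77 (SE, limma adjusted p = 0.00646), and since 2 of the 3 daf-2 values lie at background its size is uncertain and no fold is given. Within the sets it was -3.56, -3.71 and -4.16 (A, B and 1), closer together than the levels themselves. Under normexp the difference was -2.18, and the adjusted p rose to 0.0672 without set A and to 0.0975 without set B.

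oac-32, also on chromosome V, differed between times in N2 as well as between strains. At 15 °C it measured -2.70, -2.70 and -2.63, at 3 h -4.09, -3.71 and -4.37, and at 12 h -2.69, -2.28 and -2.33. In daf-2 at 12 h the values were -4.28, -4.97 and -3.88, of which the set B value was not well above background. The 15 °C and 12 h arrays of N2 lay together, and the 3 h and daf-2 arrays lay together more than 1 log2 unit below them. Set against N2 at 12 h, daf-2 was lower by -1.94 ± 0.27 (SE), that is 3.85-fold (limma adjusted p = 0.000844). The differences within the sets were -1.60, -2.69 and -1.55. All 18 alternative settings that could test this gene kept the call, with differences between -2.20 and -0.93, the smallest under normexp.

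oac-31, the immediate neighbour of oac-32, went the other way. Its values in N2 were -5.06, -5.23 and -4.56 at 15 °C, -4.96, -4.53 and -3.73 at 3 h, and -4.83, -4.02 and -3.58 at 12 h. The daf-2 arrays measured -3.58, -2.42 and -1.79. Its probe was flagged as detected on 1 array at 15 °C, on 2 at 3 h, on 2 at 12 h and on 3 in daf-2. The lowest daf-2 array just touched the highest N2 array at 12 h. oac-31 was 2.92-fold higher in daf-2 (log2 difference 1.55 ± 0.49 SE, limma adjusted p = 0.0469), by 1.25, 1.60 and 1.79 in sets A, B and 1. oac-31 entered the fit through daf-2 alone, the group where it is bright, and without the filter its adjusted p was 0.082. In all, 6 of 17 alternative settings kept it, and the adjusted p ranged from 0.00227 with the replicate block to 0.259 without set B. Under normexp the difference was 0.54, and the set A value of N2 at 12 h was not well above background, so its size is uncertain.

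**Figure D2:**
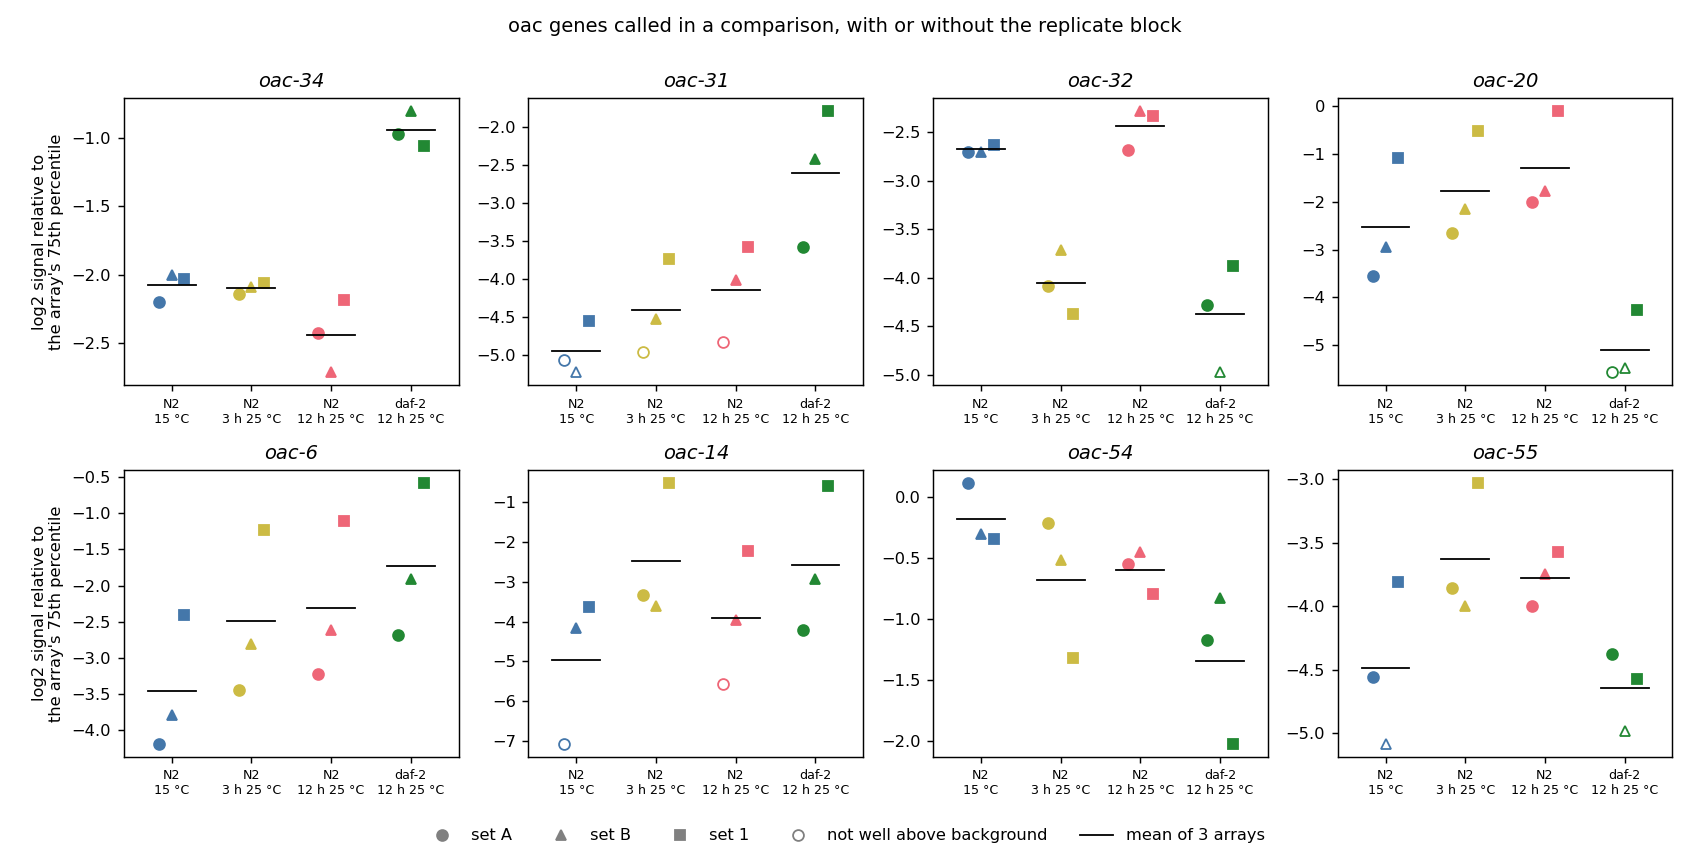
Log2 signal relative to the array's 75th percentile on each of the 12 arrays for 8 oac genes, by group (x axis), with symbols for the replicate set and lines for the mean of 3 arrays. Open symbols were not well above background. In daf-2, oac-34 lies above all N2 arrays and oac-20 below them, and oac-32 dips at 3 h and in daf-2.

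Markers of other cell types were measured on the same arrays. The summed linear signal of 37 tested sperm genes, relative to each array's 75th percentile, ran from 42.3 to 234 in daf-2 and from 177 to 1418 in N2 at 12 h, and 1 of the 37 was called, lower in daf-2. The summed signal of 6 oocyte genes ran from 163.8 to 188.6 in daf-2 and from 203.9 to 239.9 in N2, without overlap. This sum is weighted to the brightest genes, rme-2 and puf-5 (mean log2 signal 6.83 and 6.15 in N2 at 12 h). The mean log2 signal of the 6 barely separated, from 3.679 to 3.919 in daf-2 and from 3.925 to 4.166 in N2. Of these genes 1 (cav-1) was called higher, by 1.49, and 2 (rme-2 and glp-1) lower. Among 11 tested intestinal markers 3 were higher and 3 lower. Of 6 tested hypodermal markers 1 was called, the cuticle collagen gene dpy-7, higher by 4.87 on the log2 scale (limma adjusted p = 0.0108), while the median difference of the 6 was -0.07. Among the tested markers of pharynx (4), body muscle (5) and neurons (5), 1, 0 and 0 were called, with 1, 0 and 2 at an unadjusted p under 0.05. The part of these tissues in the oac differences was not tested.

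A shift of N2 worms to 25 °C for 3 h was accompanied by a change in 1 of the 14 oac genes, and 1.04% of all genes tested were called. The gene was oac-32, which was 2.60-fold lower at 3 h than at 15 °C (log2 difference -1.38 ± 0.27 SE, limma adjusted p = 0.0472). All 3 sets showed it, by -1.39, -1.01 and -1.74 in sets A, B and 1. The call sits at the edge of the threshold: with the replicate block the adjusted p was 0.0509, and it was kept in 3 of 18 alternative settings.

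At 12 h against 15 °C limma called 0 of the 14 genes, with 1 (oac-34) at an unadjusted p under 0.05, and 2.67% of all genes were called. The oac differences lay between -1.24 and 1.23. For oac-32 the difference was 0.24 ± 0.27 (SE), so its level at 12 h could not be told from that at 15 °C.

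Between 3 h and 12 h at 25 °C, 1 oac gene changed, again oac-32, and 2.05% of all genes were called. It was 3.08-fold higher at 12 h (log2 difference 1.62 ± 0.27 SE, limma adjusted p = 0.0226), by 1.40, 1.43 and 2.04 in sets A, B and 1. This call was kept in 9 of 18 alternative settings, and was lost without set A (adjusted p = 0.528) and without set B (0.259), where the differences were 1.73 and 1.72. Beside it, 4 of 6 tested early-embryo markers were higher at 12 h than at 3 h, among them hlh-1, the muscle-specifying factor, by 1.29. The summed signal of these 6 genes ran from 1.74 to 2.61 at 15 °C, from 1.16 to 1.63 at 3 h, from 3.22 to 4.45 at 12 h and from 4.23 to 6.89 in daf-2. Any part of embryos in the course of oac-32 was not tested.

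**Figure D3:**
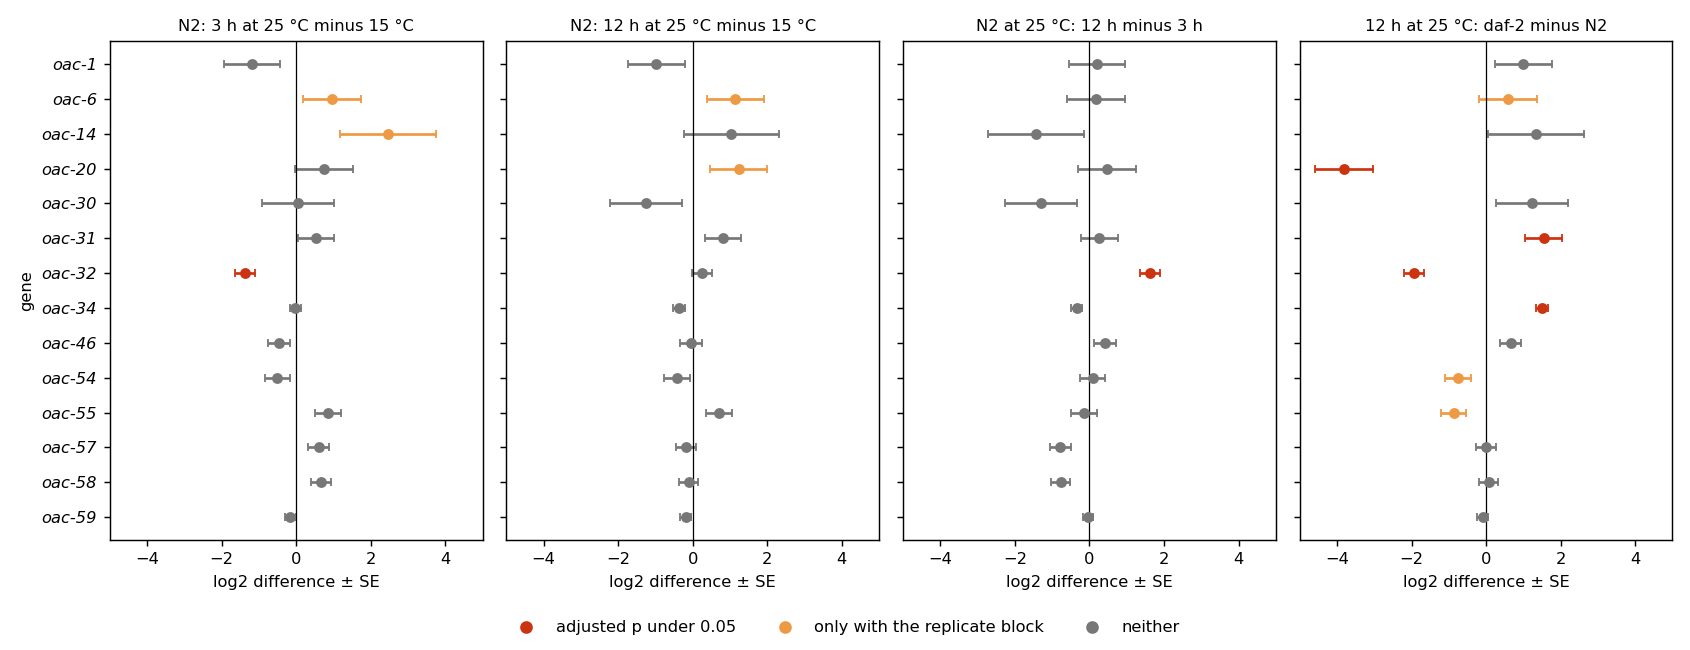
Log2 difference ± SE of each of the 14 tested oac genes in the 4 comparisons, from the fit over all genes without the replicate block. Red marks an adjusted p under 0.05 in that fit, orange an adjusted p under 0.05 with the replicate block only. oac-32 is red in 3 panels, and its call at 3 h was lost with the block.

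When the replicate set was entered as a block, so that each group is compared within its slide, further oac genes passed. For daf-2 the pairing with N2 is by slide alone. Their same-set deviations from group means correlated by 0.389, -0.388 and 0.133 (A, B and 1), which limits the block calls in daf-2. oac-6, bright on every array, measured -4.19, -3.79 and -2.40 at 15 °C, -3.45, -2.80 and -1.23 at 3 h, -3.23, -2.61 and -1.10 at 12 h, and -2.68, -1.91 and -0.58 in daf-2 (sets A, B and 1). Set 1 was the brightest in each group, and within every set the order was 15 °C, 3 h, 12 h, daf-2. Its difference from 15 °C was 0.97 at 3 h and 1.15 at 12 h, with limma adjusted p of 0.00825 and 0.00284 with the block against 0.937 and 0.569 without. daf-2 exceeded N2 by 0.59 (limma adjusted p = 0.0065 with the block, 0.585 without).

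The same fit called oac-20 higher at 12 h than at 15 °C, by 1.23 (limma adjusted p = 0.0105 with the block, 0.531 without), with the higher value at 12 h in all 3 sets. In daf-2 it added oac-54, lower by -0.75 (0.035 with, 0.143 without), and oac-55, lower by -0.87 (0.0258 with, 0.098 without). Without the block oac-55 was also called lower under quantile normalization, by -1.15 (limma adjusted p = 0.0465), and with only daf-2 and N2 at 12 h in the fit (0.0438). With the block, 2 oac genes were called at 3 h (2.43% of all genes), 2 at 12 h (7.59%), 1 between 3 h and 12 h (5.38%) and 7 in daf-2 (37.4%). The share of all genes called grew with the block in all 4 comparisons, and the oac count in 3 of them.

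oac-14, the member on the X chromosome, measured -7.06, -4.16 and -3.64 at 15 °C and -3.33, -3.60 and -0.53 at 3 h, and the set A value at 15 °C was not well above background. These groups did not overlap, and the difference was 2.47 ± 1.28 (SE, limma adjusted p = 0.664, and 0.0494 with the block). A second probe of oac-14 that passed the filter gave 1.06 at 3 h and, in daf-2, -1.19 where the first gave 1.33, so the probes that passed disagreed in direction in daf-2. The 2 other probes, which did not pass, gave 0.82 and 1.39 there. Groups without overlap and with a log2 difference of at least 1 were found for oac-14 and oac-32 at 3 h (2.37% of all genes), for 0 oac genes at 12 h against 15 °C (4.57%), for oac-32 between 3 h and 12 h (4.32%), and for oac-20, oac-32 and oac-34 in daf-2 (16.1%).

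By the probe read for each, the neighbours oac-57 and oac-58 of chromosome IV kept in step. Their log2 differences were 0.60 and 0.67 at 3 h against 15 °C, -0.18 and -0.11 at 12 h against 15 °C, -0.78 and -0.77 between 3 h and 12 h, and 0.01 and 0.07 in daf-2 against N2, and limma called 0 of these 8 differences, with 3 at an unadjusted p under 0.05. The levels of these probes differed by a median of 0.085 over the 12 arrays, and whether they read the same transcripts was not tested. A second probe of each gene did not pass the filter and did not keep in step. It gave -0.23 for oac-57 and 1.11 for oac-58 at 3 h against 15 °C, and 0.96 and -1.30 in daf-2 against N2. oac-59, on the other side of oac-57, stayed within a narrow band, from -0.99 to -0.53 over all 12 arrays, with differences between -0.19 and -0.04. Of the other tested genes, oac-46 was detected on all arrays and differed most in daf-2 (0.66 ± 0.29 SE, limma adjusted p = 0.127). oac-1 and oac-30 were uneven between sets, with differences of 1.00 ± 0.76 and 1.23 ± 0.97 in daf-2 (SE) that did not pass.

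Several dim oac genes were bright on the set B arrays of N2. oac-9 measured -7.02, -3.93 and -7.22 at 15 °C, -6.84, -3.67 and -5.86 at 3 h, and -5.60, -3.95 and -6.82 at 12 h (sets A, B and 1), but -7.21, -6.95 and -6.20 in daf-2. In each N2 group the set B array stood out, and in daf-2 it did not. oac-30 gave -4.90, -3.24 and -6.26 at 15 °C and -5.21, -2.71 and -6.33 at 3 h, with a smaller gap at 12 h (-6.19, -5.43 and -6.51). oac-23 and oac-50 were also highest on set B at 15 °C and 3 h, at -4.74 and -4.44 for oac-23 and at -4.36 and -3.75 for oac-50.

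The sperm genes were also highest on set B at 15 °C and 3 h: the mean log2 signal of the 37 genes was 0.20, 4.61 and 0.49 at 15 °C, 1.81, 4.602 and 2.29 at 3 h, 2.79, 4.08 and 1.24 at 12 h, and 1.43, -0.91 and 1.51 in daf-2. For the sperm genes set B was the highest in every N2 group and the lowest in daf-2. The match was partial: at 12 h oac-50 was higher on set A (-5.49) than on set B (-6.01). In daf-2 the lowest value of oac-9, oac-30, oac-23 and oac-50 was on set A. These oac genes were picked for this pattern after their values were seen, and whether sperm-bearing worms account for it was not tested. For oac-30, the 1 tested gene among them, no comparison was called.

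**Figure D4:**
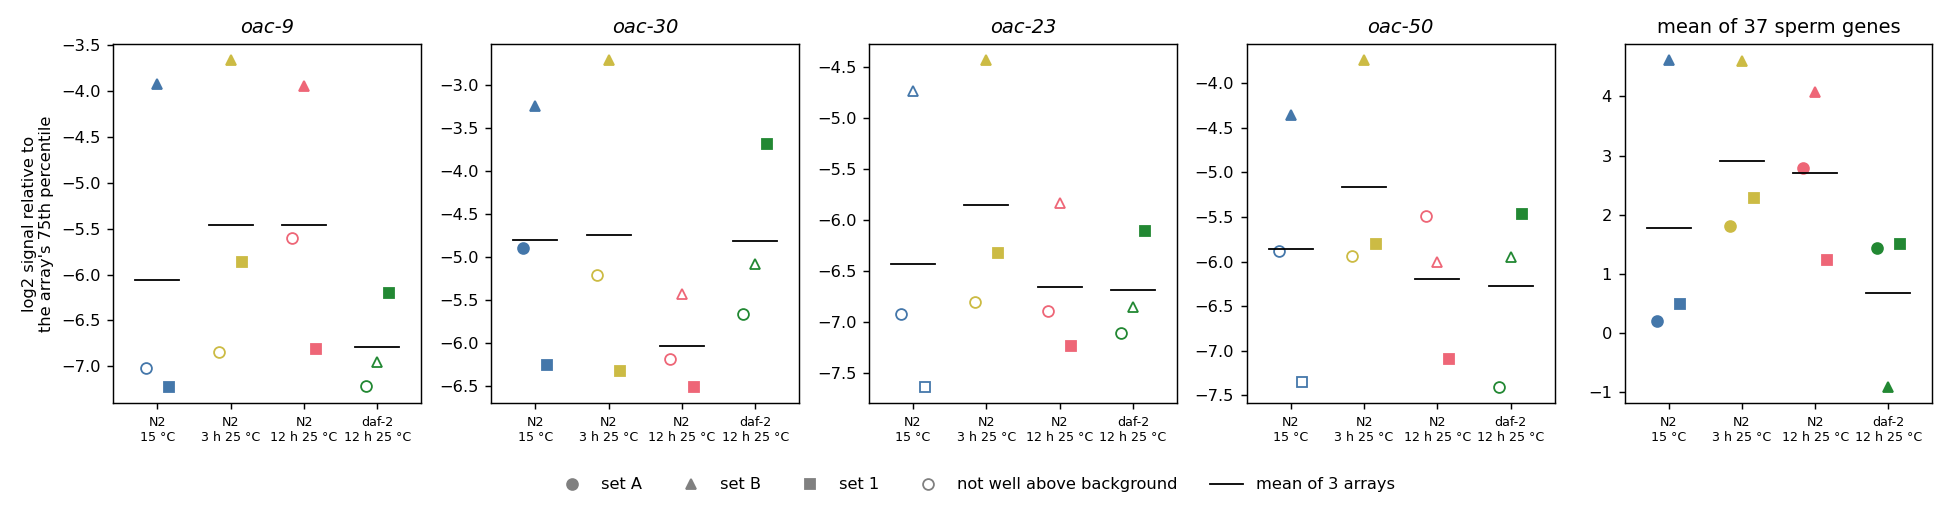
Log2 signal relative to the array's 75th percentile on each array for oac-9, oac-30, oac-23 and oac-50, and the mean log2 signal of 37 sperm genes at the right, by group, with symbols for the replicate set and lines for the mean of 3 arrays. In N2 at 15 °C and 3 h the set B array is the highest in all 5 panels. Open symbols in the gene panels were not well above background.

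The relatives of the family with an acyltransferase-3 domain were compared in the same way. Of 4 listed, 3 were tested, all well above background on 12 arrays, and in daf-2 0 were higher and 2 lower, where 14.4% of all genes were higher and 7.45% lower. nrf-6, needed for fluoxetine sensitivity and yolk transport, measured 1.45, 2.08 and 1.65 at 15 °C, 1.45, 1.66 and 1.47 at 3 h, 1.72, 1.65 and 1.78 at 12 h, and 0.65, 0.44 and 0.31 in daf-2. Every daf-2 array was below every N2 array, and the difference at 12 h was -1.25 ± 0.18 (SE, limma adjusted p = 0.000967). ndg-4, its partner in the same pathway, was lower by -0.47 ± 0.15 (limma adjusted p = 0.0465), and rhy-1 differed by -0.87 ± 0.31 (0.0675, and 0.0308 with the replicate block).

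Genes that act with these relatives were read against the same background of 21.9%. Of 7 tested genes acting with nrf-6 and ndg-4, 2 were lower, the yolk receptor gene rme-2 by -0.81 and the yolk protein gene vit-1 by -0.88. Of 6 genes acting with rhy-1, 1 was called, nhr-57, a target of HIF-1, higher by 1.23 (limma adjusted p = 0.00194). With the replicate block, which called 37.4% of all genes, hif-1 itself was also higher, by 0.42. The others were not called in either fit: cysl-1 differed by 0.58, egl-9 by -0.14, cysl-2 by -0.17 and vhl-1 by -1.06. Among the other acyltransferase families, 0 of 5 tested membrane-bound O-acyltransferase (mboa) genes were called by limma, with 0 at an unadjusted p under 0.05, and 1, mboa-6, was lower with the replicate block. Of the 13 tested acl genes, named for acyltransferase-like proteins that work on lipids, 1 was higher, acl-12 by 1.02 (limma adjusted p = 0.0118), and with the block 3 others, acl-1, acl-6 and acl-11, were lower. In the N2 comparisons limma called 0 of the 21 tested genes of the acyltransferase-3, mboa and acl lists, with 2 at 3 h, 3 at 12 h and 0 between 3 h and 12 h at an unadjusted p under 0.05. With the block acl-12 was called higher at 3 h (limma adjusted p = 0.0261) and at 12 h (0.0133) than at 15 °C. Among the genes acting with rhy-1, cysl-2 was lower at 12 h than at 15 °C, by -0.97 (limma adjusted p = 0.0212, and 0.0144 with the block). Among those acting with nrf-6 and ndg-4, nrf-5 was higher at 12 h than at 15 °C with the block only, by 0.54 (limma adjusted p = 0.0394).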

How the data were processed

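Per the labels, the RNA of whole worms was purified with a column kit and turned into Cy3-labelled cRNA. Per the file headers, spots were read with Agilent Feature Extraction 10.10.1.1. The deposited processed signal is a background-corrected intensity on a linear scale that the authors' software did not scale between arrays. The deposited flags, 0 or 1 and here treated as another kind of value, mark uneven spots and spots well above background. Raw median spot and background intensity values served normexp. The authors' series table holds the same intensity values times 1 constant per array, within 0.0373 on the log2 scale.

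Of 45220 spots per array, 1417 controls were left out, 0 were saturated, and 28 to 146 uneven ones were set to missing. log2 of the processed signal minus the array's 75th percentile was used, and repeated spots were averaged. Of 43603 probes, 34317 matched 1 gene of the WBcel235 table, used for names, chromosomes and neighbours only, since the array design is older. For genes with several probes (15 oac genes), the brightest that passed the filter stood for the gene. Where none passed, the brightest of all its probes was used for detection. All 12 arrays entered 1 two-sided fit with limma 3.58.1 (R 4.3.3), after the code was tested on simulated data. Tables came from pandas 2.3.3 and numpy 2.4.6 and plots from matplotlib 3.10.9, under Python 3.11.15.

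Genes called in a comparison were described array by array, those called with the replicate block or without overlap were named with values, and the others were named by symbol. The members, gene lists and tests were chosen with earlier results of these data known. Slide sets pair the arrays: same-set deviations from group means had correlations of 0.446 to 0.892 within N2, and of 0.389, -0.388 and 0.133 (A, B and 1) for daf-2 with N2, whose pairing is by slide alone. Alternatives covered scaling, background, filter, probe, block, variance prior, groups and sets in the fit, left-out arrays and a limit on the log2 difference. The number of arrays limits the precision.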

Additional observations from a re-analysis of the deposited data

Results flagged for a closer look

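The course of oac-32 in N2 differed between the times at 25 °C: set against the same 15 °C arrays it was lower at 3 h (-1.38) and not at 12 h (0.24), and the test of 12 h minus 3 h gave 1.62 ± 0.27 (SE, limma adjusted p = 0.0226). It was higher at 12 h in 3 of 3 sets. With 3 arrays in each group, no array was examined as an outlier.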

How the results depend on the processing

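The 6 called differences of oac-20, oac-31, oac-32 and oac-34 kept their direction in all alternatives that could test them. Other oac genes were followed only by their calls. With only the 2 groups compared, the count in daf-2 stayed at 4, but oac-31 was lost and oac-55 was gained. At 3 h against 15 °C the count of 1 became 0 with median centring, the authors' table, no filter, detection on all 12 arrays, a variance prior with a trend, sets A and B only, and only the 2 groups compared, 0 to 0 with each array left out, 0 without set A and 0 without set B, and 2 with the replicate block. At 12 h against 15 °C the count of 0 became 2 with the block and stayed 0 otherwise. Between 3 h and 12 h the count of 1 became 0 with no filter, detection on all 12 arrays (where oac-32 is not tested), sets A and B only, only the 2 groups compared, and without set A or set B, and it ran from 0 to 1 over the left-out arrays. In daf-2 the count of 4 became 5 with quantile normalization, 3 with median centring, normexp, the authors' table, no filter, and sets A and B only, 1 with detection on all 12 arrays (7 oac genes tested), 7 with the block, 2 without set A and 2 without set B, and ran from 3 to 4 over the left-out arrays. Except where fewer genes or arrays entered, the cause was not tested. Leaving out set A or set B was chosen after seeing the data. Under normexp oac-20 moved to -2.18, oac-32 in daf-2 to -0.93, at 3 h to -0.72 and at 12 h against 3 h to 0.78, and oac-31 to 0.54. Signal over background limits the family: 43 of 57 genes could not be compared, whereas 13483 of all 19811 genes with a probe were. Of the 43, 22 were seen on set 1 only by the probe read, a share not counted over all genes.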

Other observations

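A few oac genes were bright on single arrays. oac-11 measured -3.31 on the set B array of daf-2 and between -9.84 and -7.03 on the other 11 arrays, with that 1 array well above background. oac-51 measured -3.24 on the set 1 array of daf-2 and between -9.46 and -5.65 elsewhere. oac-45 was well above background on 3 arrays, at -4.45 in set A at 3 h, -4.61 in set B at 12 h and -5.001 in set A of daf-2, and on 0 arrays of set 1, although that set detected the most oac genes. These genes were chosen after their values were seen, and a value on 1 array has no replicate.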
